A study of Mus musculus with 9 samples.

Results

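The 10 integrin subunit genes that mark macrophages and osteoclasts were taken from the deposited table of 28379 genes by their gene names, Itgav, Itgb3, Itgb5, Itgb2, Itgam, Itgax, Itgal, Itga4, Itgb1 and Itgb7. All 10 were found, and all 10 passed the filter on low counts, which left 17002 genes to test. Each of the 9 libraries came from bone marrow-derived macrophages (BMDMs) of C57BL/6 mice (C57BL/6J in the study's methods), precursors that can become osteoclasts, kept for 48 h in culture with macrophage colony-stimulating factor (M-CSF, 20 ng/ml) in every group. The PBS group (n = 3) received vehicle. The RANKL group (n = 3) received 100 ng/ml of RANKL, the cytokine that drives osteoclast formation. Cells of the RANKL + Vit D + K group (n = 3) received this RANKL with 1000 nM vitamin D (calcitriol) and 20 µM vitamin K (MK4) according to the sample labels, although the study's methods give another MK4 dose. The mice were 10 weeks old. The methods describe libraries from pooled RNA and the labels do not name separate animals or cultures for the replicates, so the p-values below measure only the spread between these libraries.

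Integrins are surface receptors made of an alpha and a beta chain that bind matrix proteins or ligands on other cells and pass signals in both directions across the membrane. In osteoclasts the alpha v beta 3 receptor anchors the cell to bone and organises the ring of actin that seals the resorption site, whereas alpha v beta 5 is found on the macrophage precursors. Macrophages adhere and phagocytose through the beta 2 family, in which the alpha chain is Itgam (CD11b), Itgal (CD11a) or Itgax (CD11c), and bind VCAM-1, fibronectin and MAdCAM-1 through alpha 4 joined to beta 1 or beta 7.

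Positions are those of the deposited table, which for 9 of the 10 genes are identical to GENCODE release M21 on GRCm38. The alpha v family comprised Itgav (ENSMUSG00000027087, chr2:83724397-83806916, plus strand), Itgb3 (ENSMUSG00000020689, chr11:104608000-104670476, plus strand) and Itgb5 (ENSMUSG00000022817, chr16:33829665-33949338, plus strand). In the beta 2 family, the 3 alpha genes lay on chromosome 7, Itgal at chr7:127296260-127335138 (ENSMUSG00000030830, plus strand), Itgam at chr7:128062640-128118491 (ENSMUSG00000030786, plus strand) and Itgax at chr7:128129547-128150657 (ENSMUSG00000030789, plus strand). Their partner Itgb2 (ENSMUSG00000000290, plus strand) was listed at chr10:77530252-77565686, with an end that differs from GENCODE. The alpha 4 family comprised Itga4 (ENSMUSG00000027009, chr2:79255426-79333123, plus strand), Itgb1 (ENSMUSG00000025809, chr8:128685654-128733200, plus strand) and Itgb7 (ENSMUSG00000001281, chr15:102215995-102231944, minus strand).

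Upstream sequences are shown for the members that passed the test in at least 1 comparison with the RANKL group and that had an entry in the RefSeq promoter table (GRCm38.p6), in which 7 of the 10 members were matched. They are printed 5′ to 3′ on the strand of the gene and end at the base before the GENCODE start of the gene. Capitals mark matches on either strand to 3 motifs of factors known from macrophages and osteoclasts. TGANTCA is the AP-1 motif. The motif searched for PU.1 was GAGGAA, and that for RUNX factors was TGTGGT.
Itgax, chr7:128129300-128129546: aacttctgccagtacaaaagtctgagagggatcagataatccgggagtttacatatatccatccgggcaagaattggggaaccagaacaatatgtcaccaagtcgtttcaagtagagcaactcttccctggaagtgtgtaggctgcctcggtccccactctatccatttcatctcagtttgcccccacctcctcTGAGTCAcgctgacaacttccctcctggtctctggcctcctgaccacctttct
Itgb7, chr15:102231945-102232185: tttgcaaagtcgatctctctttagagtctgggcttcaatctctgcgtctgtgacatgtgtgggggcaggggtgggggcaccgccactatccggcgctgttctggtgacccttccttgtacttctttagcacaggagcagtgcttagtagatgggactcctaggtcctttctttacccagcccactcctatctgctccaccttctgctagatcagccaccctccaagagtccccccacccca
Itga4, chr2:79255176-79255425: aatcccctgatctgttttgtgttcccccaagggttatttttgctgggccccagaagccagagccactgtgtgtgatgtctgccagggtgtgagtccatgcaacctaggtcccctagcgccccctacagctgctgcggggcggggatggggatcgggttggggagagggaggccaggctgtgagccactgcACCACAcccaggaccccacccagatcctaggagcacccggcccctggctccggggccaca
Itgb1, chr8:128685404-128685653: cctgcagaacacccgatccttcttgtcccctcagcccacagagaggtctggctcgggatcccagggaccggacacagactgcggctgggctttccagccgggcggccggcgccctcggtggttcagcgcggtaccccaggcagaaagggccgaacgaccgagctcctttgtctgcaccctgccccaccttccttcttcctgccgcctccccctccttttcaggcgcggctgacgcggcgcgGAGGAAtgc
The Itgax window held 1 AP-1 match, which began at base -56, counted back from the RefSeq start, and this motif was present in 6.75% of the 32817 upstream windows of 250 bases in the table. The Itga4 window held 1 RUNX match at base -60 (14.0% of windows), and the Itgb1 window held 1 PU.1 match at base -9 (23.3% of windows). Of 3 short repeat units that the vitamin D receptor can bind, the unit GGTTCA was found in the Itgb1 window at base -131 (8.84% of windows) and in none of the other 3 windows. The unit AGGTCA (14.0% of windows) and the unit written as AGTTCA (11.9% of windows) matched none of the 4 windows. The core GGAAA of NFAT, a factor activated by RANKL, was searched too, is not marked by capitals and was present in 55.6% of windows. It was found in the Itgb1 window at base -160 and in none of the other 3. The Itgb7 window held none of these motifs. These matches only describe the letters in the windows.

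The libraries held between 65915112 and 68229647 counts. Levels are given as FPKM, fragments scaled by the authors to transcript length and library size, which allows genes to be compared per length. Differences were tested on the counts with the quasi-likelihood test of edgeR, fitted to the 9 libraries at once, and a gene was called changed at a Benjamini-Hochberg adjusted p under 0.05 over all tested genes. Of the osteoclast markers, 10 of 10 were called higher with RANKL, beside 3.61% of all genes called. With the vitamins over RANKL 9 of 10 were called lower, beside 33.7% of all genes called. The exception was Atp6v0d2, at 12.4 to 38.8 FPKM with the vitamins (-0.23 over RANKL, edgeR adjusted p = 0.701). The summed level of the 10 markers was 23.0 to 30.6 FPKM in PBS, 490 to 1029 FPKM in RANKL and 58.2 to 93.1 FPKM in RANKL + Vit D + K. Of the macrophage markers, Lyz2 ranged from 24181 to 28239 FPKM, from 15002 to 22219 FPKM and from 3189 to 10168 FPKM in the same order, and Csf1r from 832 to 1056 FPKM, from 412 to 627 FPKM and from 136 to 221 FPKM. Summed neutrophil markers ranged from 11.1 to 128 FPKM, from 11.3 to 148 FPKM and from 0.551 to 1.72 FPKM, with Mpo, Elane, Camp, Ltf, Ly6g and Retnlg at 0 in all 3 vitamin libraries. Ly6g was at 0 in all RANKL libraries too, and Mpo, Elane and Retnlg were at 0 in RANKL replicate 3. Summed markers of lymphocytes, mast cells and stromal cells stayed at or below 0.898 FPKM in every library. Only 4 of 9 lymphocyte markers and 3 of 6 mast cell and basophil markers were in the deposited table. The T cell markers Cd3e, Cd3d and Cd3g were among those missing, so this sum does not measure T cells. In bulk RNA, fewer cells of a type and less RNA per cell cannot be told apart. Replicate 2 of RANKL + Vit D + K stood nearest to the RANKL mean for 4485 of the 5725 genes called between these groups (78.3%). Results without it are given for the member calls of the vitamins over RANKL and for the Itgb3 to Itgb5 ratio. They are also given for the counts of called genes in comparisons with the RANKL group.

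In PBS-treated BMDMs, the beta 2 chain and its partner Itgam led the integrins by level. Itgb2 stood at 199 ± 7.96 FPKM (SD, n = 3), Itgam at 158 ± 28.8 FPKM and Itgb1 at 115 ± 4.69 FPKM, and the ranges of these 3 did not overlap. Itgal at 70.0 ± 8.97 FPKM and Itgb5 at 69.2 ± 9.14 FPKM could not be ordered within their spread. Itga4 followed at 34.6 ± 1.29 FPKM, above Itgav at 8.45 ± 1.45 FPKM and Itgb7 at 8.40 ± 2.55 FPKM, which overlapped. Itgb3 at 1.02 ± 0.345 FPKM and Itgax at 0.614 ± 0.161 FPKM were the lowest, and they overlapped too. In RANKL the order of means was Itgam, Itgb2, Itgb1, Itgal, Itgb5, Itga4, Itgb7, Itgav, Itgb3 and Itgax, in which Itgam and Itgb2, Itgal and Itgb5, and Itgb7 and Itgav overlapped. With the vitamins it was Itgb2, Itgam, Itgb1, Itgb5, Itgb7, Itgal, Itgb3, Itga4, Itgav and Itgax. Itgam overlapped Itgb1, and from Itgb7 down to Itgax each gene overlapped the next.

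**Figure D1:**
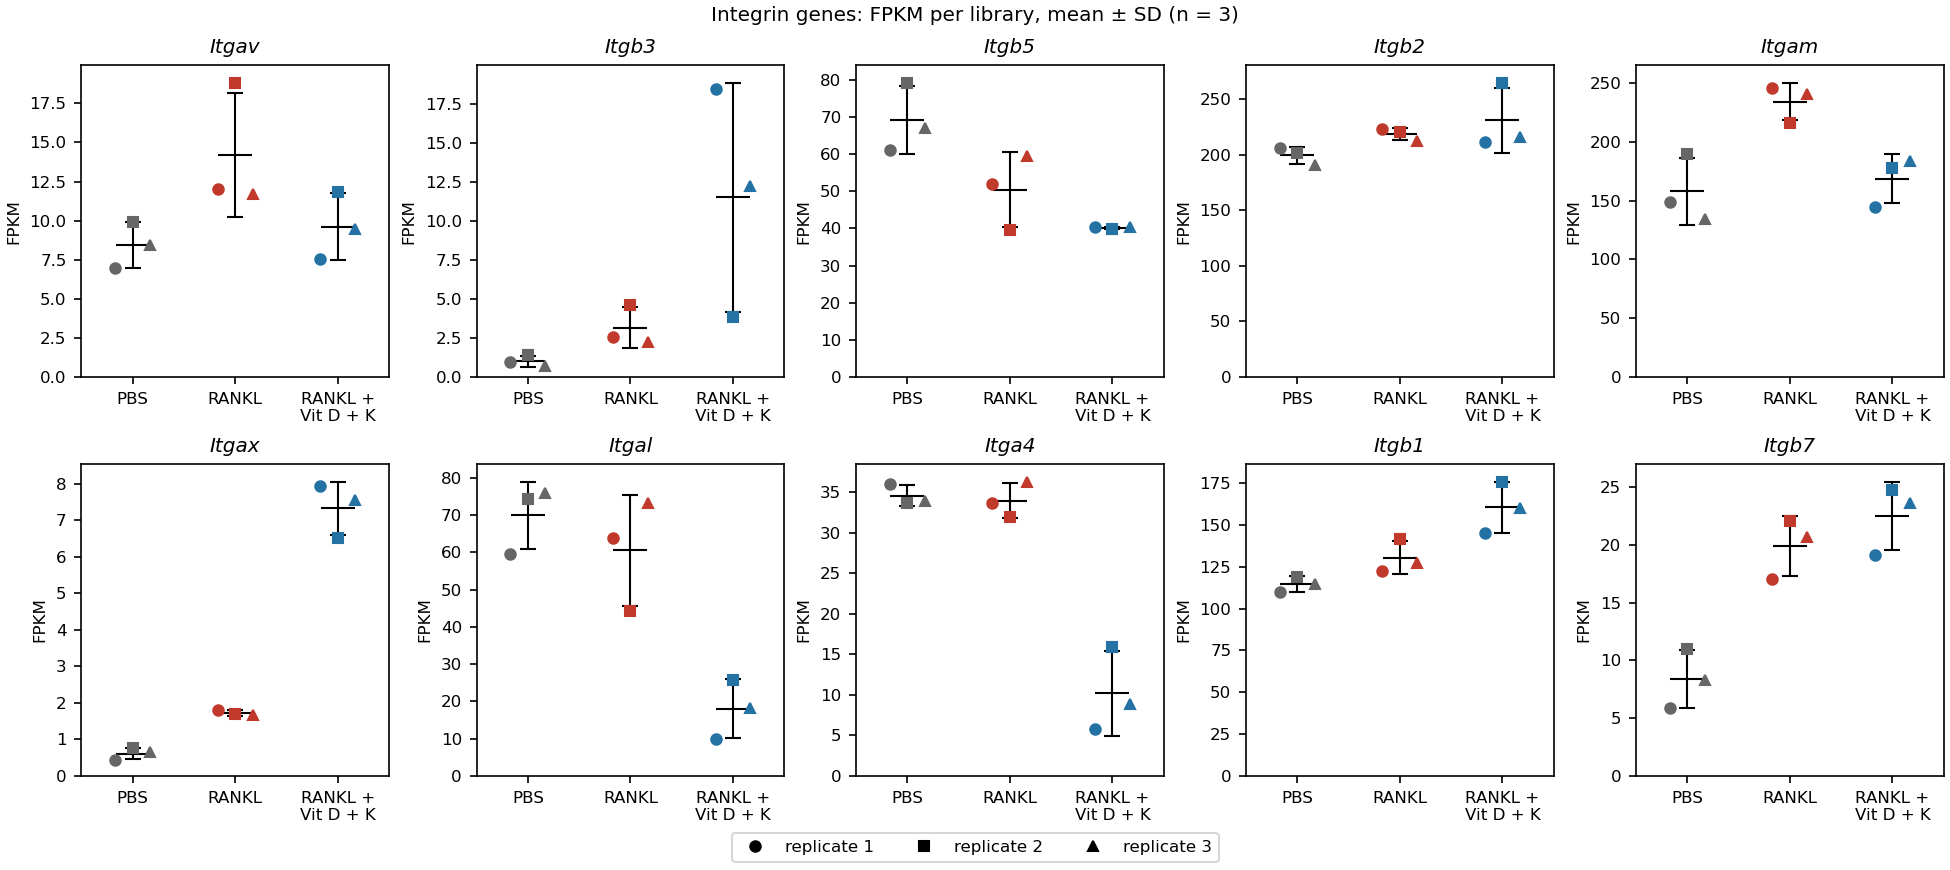
FPKM (vertical axis) of the 10 integrin genes in the 3 libraries of each group, with marker shapes for replicates 1 to 3 and bars for mean ± SD (n = 3). Itgax is highest in the 3 vitamin libraries (6.53 to 7.93 FPKM), where Itgal (10.0 to 25.8 FPKM) and Itga4 (5.74 to 15.9 FPKM) are lowest, and Itgb3 is spread from 3.83 to 18.5 FPKM among the vitamin libraries.

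The first comparison asked which integrins changed during 48 h of RANKL. Itgax and Itgb7 rose with RANKL, 2.58-fold and 2.18-fold, so 2 of the 10 members were called, beside 3.61% of all genes tested. With the replicate number, which was taken to pair these groups, as a block, 3 members were called (Itgav added). Of all genes, 825 were called with this block, against 614 in the model of all 9 libraries without it. When only these groups were in the model as well, 5 members were called (Itgav, Itgb3 and Itgam added), beside 3081 of all genes. The higher member counts therefore came with more calls among all genes. No member fell. The median log2 fold change of the 10 was 0.26 against -0.04 over all tested genes. In log2 CPM after TMM scaling the PBS and RANKL libraries did not overlap for 6 of the 10 members, beside 35.7% of all genes. Besides Itgax and Itgb7 these were Itgb3, Itgav and Itgam, with higher mean levels in RANKL, and Itgb5, with a lower one, whose adjusted p-values missed the threshold. Itgb1 and Itgb2 did not overlap in FPKM but did after this scaling. The second comparison asked what the vitamins changed in RANKL-treated cells. Itgax (4.73-fold), Itgb3 (4.22-fold) and Itgb1 (1.36-fold) rose, and Itgal (3.12-fold lower) and Itga4 (3.10-fold lower) fell, so 5 of the 10 were called beside 33.7% of all genes. These 5 members were also the ones called when vitamin replicate 2 was left out. The median of the 10 was 0.02, with 5 values above 0 and 5 below. Against PBS, RANKL + Vit D + K cells had 7 of the 10 called beside 40.8% of all genes, with Itgb3, Itgax, Itgb1 and Itgb7 higher and Itgb5, Itgal and Itga4 lower. The 3 comparisons share libraries, so their values are set side by side and not compared with one another.

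**Figure D2:**
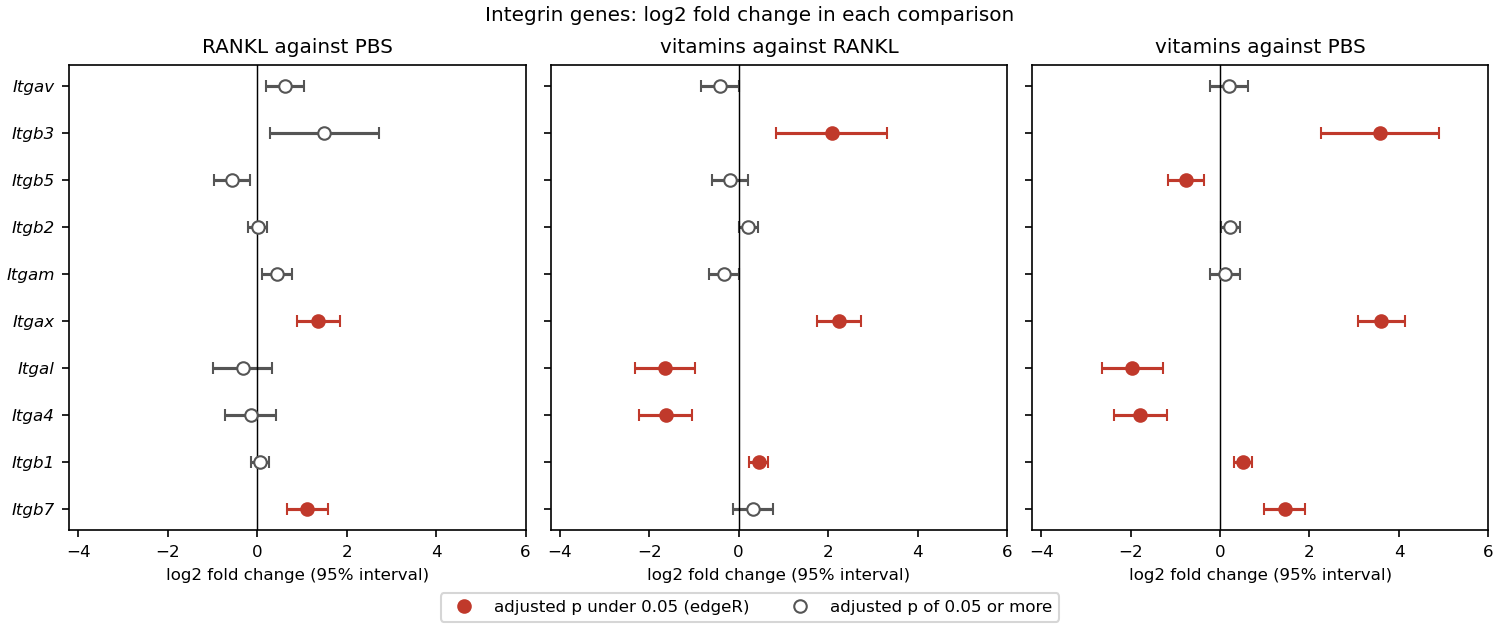
Log2 fold change (horizontal axis) of each integrin gene in the 3 comparisons, with 95% intervals from edgeR, filled where the adjusted p was under 0.05. Itgax lies to the right in all 3 panels (1.37, 2.24 and 3.61), whereas Itgal (-1.64 and -1.96) and Itga4 (-1.63 and -1.78) lie to the left in the 2 panels with the vitamins.

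Itgb3 encodes the beta chain of the osteoclast vitronectin receptor. Its level was 0.937, 1.40 and 0.726 FPKM in the PBS libraries, 2.60, 4.65 and 2.26 FPKM in RANKL, and 18.5, 3.83 and 12.3 FPKM in RANKL + Vit D + K. Every RANKL library lay above every PBS library, while vitamin replicate 2 lay below RANKL replicate 2 and the other vitamin libraries far above it. The difference between RANKL and PBS was 1.498 on the log2 scale (95% interval 0.28 to 2.72), which missed the threshold in edgeR's quasi-likelihood test (adjusted p = 0.176). Over 19 alternatives this adjusted p ran from 0.00183 to 0.493, and it passed with only the PBS and RANKL libraries in the model (log2 fold change 1.56, adjusted p = 0.0271), with the replicate block added to that model (1.54, adjusted p = 0.00183), without vitamin replicate 2 (1.498, adjusted p = 0.0213) with quality weights (1.36, adjusted p = 0.0393) and in DESeq2 (1.52, adjusted p = 0.0313). With the block in the model of all 9 libraries it missed the threshold (1.504, edgeR adjusted p = 0.204). With the vitamins Itgb3 rose by a further 2.08 ± 0.55 (SE) on the log2 scale over RANKL (edgeR, adjusted p = 0.0186). That call was lost without RANKL replicate 1 (adjusted p = 0.0723), RANKL replicate 3 (0.0713), vitamin replicate 1 (0.0677) or vitamin replicate 3 (0.0546) in edgeR, and without vitamin replicate 2 the difference was 2.52. Against PBS the vitamin group was 11.9-fold higher (3.58 ± 0.58, edgeR adjusted p = 0.00178). Megakaryocytes and platelets carry Itgb3 too. Of their markers, Pf4 was at 5.55, 29.7 and 7.78 FPKM in PBS, 3.23, 12.4 and 3.35 FPKM in RANKL and 10.4, 18.4 and 15.2 FPKM with the vitamins, where it was not called over RANKL (1.38, edgeR adjusted p = 0.144). Gp1ba fell by 2.10 ± 0.41 with the vitamins (edgeR, adjusted p = 0.00599), and Itga2b, the platelet partner of Itgb3, gave -1.20 (edgeR adjusted p = 0.105). These markers were chosen after their values were seen, and their part in the Itgb3 result was not tested.

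Itgav encodes the alpha v chain that Itgb3 and Itgb5 share. Its level was 7.00, 9.91 and 8.45 FPKM in PBS, 12.0, 18.8 and 11.7 FPKM in RANKL, and 7.55, 11.8 and 9.48 FPKM with the vitamins. The RANKL libraries lay above all PBS libraries, and vitamin replicate 2 reached into the RANKL range in FPKM. In log2 CPM after TMM scaling the RANKL and vitamin libraries did not overlap. The log2 difference was 0.61 (95% interval 0.19 to 1.04) for RANKL over PBS, with an edgeR adjusted p of 0.116, and it was called when the replicate number was a block in the model (0.61, adjusted p = 0.0314). Over 19 alternatives its adjusted p ran from 0.00995 to 0.364. Between the vitamin and RANKL groups the difference was -0.42 (95% interval -0.84 to 0.01, edgeR adjusted p = 0.118).

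Itgb5 encodes the beta 5 chain. Its level was 61.2, 79.2 and 67.1 FPKM in PBS, 52.0, 39.6 and 59.5 FPKM in RANKL, and 40.3, 39.8 and 40.4 FPKM with the vitamins. The vitamin libraries lay close together, below all PBS libraries, and RANKL replicate 2 was as low as they were. Itgb5 was 1.69-fold lower in the vitamin group than in PBS (-0.75 ± 0.18, edgeR adjusted p = 0.00996), whereas RANKL against PBS gave -0.57 (95% interval -0.97 to -0.17, edgeR adjusted p = 0.125) and the vitamins against RANKL gave -0.18 (95% interval -0.59 to 0.22, edgeR adjusted p = 0.458).

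The balance of the beta chains that compete for alpha v was followed as the level of Itgb3 per 100 FPKM of Itgb5 in the same library, which does not depend on library scaling. It was 1.53, 1.77 and 1.08 in PBS, 5.00, 11.7 and 3.80 in RANKL, and 45.8, 9.62 and 30.4 with the vitamins. The ratio was 4.24-fold higher in RANKL than in PBS (log2 difference 2.08, groups not overlapping) and 16.6-fold higher in the vitamin group than in PBS (log2 difference 4.05, not overlapping), each with an exact two-sided permutation p of 0.1, the smallest that 3 libraries against 3 can give. The vitamin and RANKL groups overlapped (log2 difference 1.97, exact permutation p = 0.2). With a library left out, the log2 difference ran from 3.58 (without vitamin replicate 1) to 4.70 (without vitamin replicate 2) over PBS, and from 1.496 to 2.62 over RANKL without the same libraries. Even in vitamin replicate 1, Itgb5 remained the more abundant of the pair per length.

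**Figure D3:**
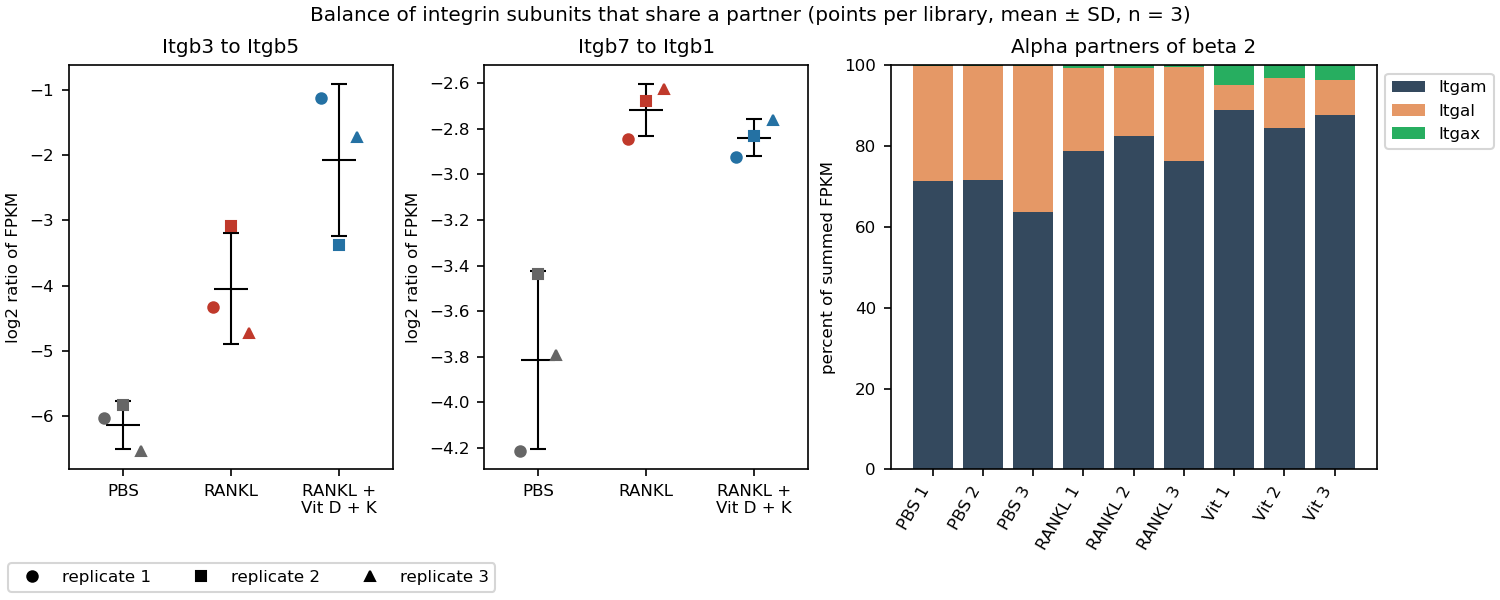
Left and middle, log2 ratio of FPKM per library for Itgb3 to Itgb5 and for Itgb7 to Itgb1, with mean ± SD (n = 3), and right, the percent of the summed FPKM of the alpha partners of beta 2 in each library (Vit, RANKL + Vit D + K). The mean Itgb3 to Itgb5 ratio moves from -6.13 in PBS to -4.04 in RANKL and -2.07 with the vitamins, and the Itgal part of the bars is smallest with the vitamins (6.16% to 12.3%).

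Within the beta 2 family, Itgax was called in all 3 comparisons by edgeR and its partner Itgb2 in none. Itgax encodes CD11c, found on dendritic cells and on some macrophages. Its level was 0.438, 0.755 and 0.648 FPKM in PBS, 1.82, 1.70 and 1.66 FPKM in RANKL, and 7.93, 6.53 and 7.55 FPKM with the vitamins, from 156 counts in the lowest library to 2848 in the highest. The 3 groups did not overlap. Itgax rose by 1.37 ± 0.22 (SE) on the log2 scale with RANKL (edgeR, adjusted p = 0.0131) and by 2.24 ± 0.22 with the vitamins over RANKL (edgeR, adjusted p = 0.000422). The first of these calls was lost without PBS replicate 3 (edgeR adjusted p = 0.0523) or RANKL replicate 1 (0.0565), and the second held in 18 of 18 alternatives. The summed markers of dendritic cells, which carry CD11c, were 0.231 to 0.549 FPKM in PBS, 0.630 to 1.07 FPKM in RANKL and 0.0315 to 0.181 FPKM with the vitamins, with Flt3 and Cd209a at 0 in all vitamin libraries. Of these markers 2 gave values above 0 between the vitamin and PBS groups and 4 below. Their part in the Itgax result was not tested.

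Itgal encodes CD11a, the alpha chain of LFA-1, which binds the ICAMs. Its level was 59.7, 74.3 and 76.0 FPKM in PBS, 63.9, 44.3 and 73.4 FPKM in RANKL, and 10.0, 25.8 and 18.3 FPKM with the vitamins. All vitamin libraries lay below all others, with replicate 2 the highest of them, and PBS and RANKL overlapped. Itgal fell by 1.64 ± 0.30 on the log2 scale with the vitamins over RANKL (edgeR, adjusted p = 0.00437), a call kept in 18 of 18 alternatives, and the difference between RANKL and PBS was -0.32 (95% interval -0.98 to 0.33, edgeR adjusted p = 0.623).

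Itgam encodes CD11b, the alpha chain of complement receptor 3. Its level was 149, 189.8 and 134 FPKM in PBS, 245, 216 and 241 FPKM in RANKL, and 145, 177 and 183 FPKM with the vitamins. In FPKM the RANKL libraries stood above all others, and PBS and vitamin libraries overlapped. In log2 CPM after TMM scaling the RANKL and vitamin libraries overlapped. In the test on counts the differences were 0.45 for RANKL over PBS (95% interval 0.12 to 0.79, edgeR adjusted p = 0.141, with a range of 0.00564 to 0.327 over 19 alternatives) and -0.33 for the vitamins over RANKL (95% interval -0.67 to 0.00, edgeR adjusted p = 0.115), and the latter passed in limma on log2(FPKM + 0.1) (-0.48, adjusted p = 0.0346, with a range of 0.0346 to 0.284 over 18 alternatives). The rise over PBS was called with the replicate number as a block and only these groups in the model (0.51, edgeR adjusted p = 0.0494, a model added after the data were seen), by DESeq2 (0.47, adjusted p = 0.0426) and with quality weights (0.56, adjusted p = 0.00564), but not with the block in the model of all 9 libraries (0.45, edgeR adjusted p = 0.157). Itgam overlaps the same-strand gene Gm49368 over 55809 bases, so reads of the pair could be split, but Gm49368 was listed at mean levels of 0.944, 1.78 and 1.82 FPKM in PBS, RANKL and RANKL + Vit D + K.

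Itgb2 encodes the common beta 2 chain. Its level was 206, 201 and 190.4 FPKM in PBS, 223, 220.0 and 212 FPKM in RANKL, and 212, 264 and 216 FPKM with the vitamins. The RANKL libraries were above all PBS libraries in FPKM, yet after TMM scaling, whose factors were 0.963 to 0.993 in PBS and 1.04 to 1.11 in RANKL, the log2 difference was 0.01 (95% interval -0.20 to 0.22, edgeR adjusted p = 0.974) and its sign turned without RANKL replicate 1 (-0.02). The vitamins over RANKL gave 0.22 (95% interval 0.01 to 0.43, edgeR adjusted p = 0.0993), which DESeq2 called (0.21, adjusted p = 0.0481, with a range of 0.0353 to 0.633 over 18 alternatives).

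As shares of the summed FPKM of Itgam, Itgal and Itgax, Itgam made up 68.9% ± 4.52 in PBS, 79.2% ± 3.11 in RANKL and 87.1% ± 2.26 with the vitamins (SD, n = 3). Itgal made up 30.9% ± 4.49, 20.2% ± 3.17 and 9.07% ± 3.09 in the same order. Itgax remained a small part, at 0.267% ± 0.0513, 0.587% ± 0.0626 and 3.87% ± 0.910. For each share no 2 groups overlapped, with an exact permutation p of 0.1 in all 9 tests, the smallest possible. The shares add up to the whole in each library, so these tests are not independent of one another. With the vitamins the share of Itgam was higher than in RANKL, although its mean level was lower (169 against 234 FPKM). The mean level of Itgal was lower too (18.0 against 60.5 FPKM). The 3 alpha genes together amounted to 115 ± 15.3 FPKM per 100 FPKM of Itgb2 in PBS, 136 ± 15.3 in RANKL and 84.3 ± 10.9 with the vitamins. Neutrophils also carry beta 2 integrins, and their markers fell to near 0 with the vitamins as given above. The part of that difference in the shares was not tested.

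In the alpha 4 family, Itga4 fell with the vitamins while Itgb1 rose, and Itgb7 rose with RANKL. Itga4 encodes the chain that binds VCAM-1 and fibronectin when joined to beta 1. Its level was 36.0, 33.7 and 33.9 FPKM in PBS, 33.7, 31.9 and 36.3 FPKM in RANKL, and 5.74, 15.9 and 8.87 FPKM with the vitamins. PBS and RANKL libraries were mixed, and all vitamin libraries lay below them, replicate 2 again nearest to RANKL. The fall of Itga4 was 1.63 ± 0.26 on the log2 scale (edgeR, adjusted p = 0.00273) and was called in 18 of 18 alternatives. RANKL against PBS gave -0.15 (95% interval -0.72 to 0.43, edgeR adjusted p = 0.826). Among markers of macrophages, Csf1r (-1.45, edgeR adjusted p = 0.002), Lyz2 (-1.61, adjusted p = 0.00795), Adgre1 (-0.78, adjusted p = 0.00624), Mertk and Fcgr1 were also called lower with the vitamins over RANKL, whereas Cd68 was called higher (0.53 ± 0.13, edgeR adjusted p = 0.0143). The part of these markers in the lower levels of Itgal and Itga4 was not tested. Itga4 overlaps the end of Cerkl on the opposite strand, which was listed at 0.0498 to 0.102 FPKM on average.

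Itgb1 encodes the beta 1 chain, the partner of many alpha chains. Its level was 109.8, 119 and 115 FPKM in PBS, 123, 141 and 127 FPKM in RANKL, and 145, 176 and 160.4 FPKM with the vitamins. The vitamin libraries were above all others. Itgb1 rose by 0.44 ± 0.09 with the vitamins over RANKL (edgeR, adjusted p = 0.00653), the smallest of the 5 called differences, and in limma on log2(FPKM + 0.1) it was 0.30 with an adjusted p of 0.0493. RANKL against PBS gave 0.06 (95% interval -0.14 to 0.26, edgeR adjusted p = 0.790). Itga4 per 100 FPKM of Itgb1 was 30.2 ± 2.34 in PBS, 26.2 ± 3.17 in RANKL and 6.18 ± 2.60 with the vitamins.

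Itgb7 encodes the beta 7 chain, which with alpha 4 binds MAdCAM-1. Its level was 5.91, 11.01 and 8.28 FPKM in PBS, 17.1, 22.1 and 20.7 FPKM in RANKL, and 19.1, 24.7 and 23.7 FPKM with the vitamins. The PBS libraries lay below all others, and the RANKL and vitamin libraries overlapped in FPKM but not in log2 CPM after TMM scaling. Itgb7 rose by 1.12 ± 0.20 with RANKL (edgeR, adjusted p = 0.0199), a call lost without PBS replicate 1 (0.05005), PBS replicate 3 (0.0879) or RANKL replicate 1 (0.0537), 2 (0.0737) or 3 (0.0647). The vitamins over RANKL gave 0.32 (95% interval -0.13 to 0.77, edgeR adjusted p = 0.243). Per 100 FPKM of Itgb1, Itgb7 stood at 7.28 ± 1.93 in PBS, 15.3 ± 1.19 in RANKL and 14.0 ± 0.789 with the vitamins. The log2 ratio differed by 1.10 between RANKL and PBS without overlap (exact permutation p = 0.1) and by -0.12 between the vitamins and RANKL (exact permutation p = 0.3).

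Among 16 other integrin genes, 13 were tested. Itga2, which with beta 1 binds collagen, was the 1 gene called with RANKL, beside 3.61% of all genes. It was at 0.0209, 0.0434 and 0.0228 FPKM in PBS, 1.04, 1.20 and 0.707 FPKM in RANKL and 0.00565, 0.00522 and 0.0143 FPKM with the vitamins, so RANKL libraries stood apart from all others. It rose by 4.89 ± 0.45 with RANKL (edgeR, adjusted p = 0.00129) and fell by 6.52 ± 0.50 with the vitamins (edgeR, adjusted p = 0.000235). With the vitamins 4 of the 13 fell and 0 rose, beside 33.7% of all genes called, and against PBS 5 were lower and 1 higher, beside 40.8%. Itga6, the laminin receptor chain, was at 28.8, 36.4 and 27.2 FPKM in PBS, 19.1, 18.5 and 19.2 FPKM in RANKL and 4.06, 10.1 and 6.70 FPKM with the vitamins, and fell by 1.33 ± 0.24 with the vitamins over RANKL (edgeR, adjusted p = 0.00406). Itga1, a second collagen receptor chain, fell by 1.35 ± 0.32 (edgeR, adjusted p = 0.0122). Itgb8 had 48, 10 and 75 counts in RANKL and 0 in all vitamin libraries, at least 14.6-fold lower when 3 counts per library are set as the floor. The median log2 fold change of the 13 was -0.33 with RANKL and -1.20 with the vitamins over RANKL, against -0.04 over all genes in each.

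The list of integrin ligands held 22 symbols, of which Cyr61 is an older name of another, Ccn1, and 14 of its genes were tested. With RANKL 2 rose and 0 fell, beside 3.61% of all genes called. F11r (JAM-A, a ligand of LFA-1) rose by 1.37 ± 0.24 (edgeR, adjusted p = 0.0183), and Cdh1 (E-cadherin, a ligand of beta 7 paired with alpha E) went from 0 counts in PBS to 12, 36 and 11 counts, at least 6.47-fold higher. With the vitamins over RANKL 4 rose and 5 fell, beside 33.7% of all genes called. Spp1 (osteopontin), a ligand of alpha v beta 3, was at 113, 429.7 and 99.8 FPKM in PBS, 163, 281 and 167 FPKM in RANKL and 913, 945 and 899 FPKM with the vitamins. The vitamin libraries lay above all others and close together, while PBS replicate 2 stood apart from its group. Spp1 rose by 2.33 ± 0.51 with the vitamins over RANKL (edgeR, adjusted p = 0.00862). Vcam1, the ligand of alpha 4 beta 1, was at 0.183, 0.353 and 0.135 FPKM in PBS, 0.633, 0.397 and 0.360 FPKM in RANKL and 0.0112, 0.00689 and 0.0185 FPKM with the vitamins, and fell by 4.93 ± 0.55 (edgeR, adjusted p = 0.000736). Thbs1 (thrombospondin), a ligand of alpha v beta 3, ranged from 55.5 to 216 FPKM in PBS, from 6.77 to 118 FPKM in RANKL and from 2.04 to 2.68 FPKM with the vitamins, and fell by 4.55 ± 0.96 (edgeR, adjusted p = 0.00778). Tnc (tenascin) had 15, 59 and 6 counts in RANKL and 0 in all vitamin libraries, at least 8.87-fold lower. The median over the 14 was -0.30 with RANKL and -0.79 with the vitamins over RANKL.

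Among 19 tested genes of integrin activation and adaptors, 0 rose and 1 fell with RANKL (3.61% of all genes called), and 2 rose and 5 fell with the vitamins over RANKL (33.7%). Rasgrp2, an activator of Rap1 upstream of integrin activation, was at 1.19, 0.920 and 1.05 FPKM in PBS, 0.393, 0.293 and 0.473 FPKM in RANKL and 0.0402, 0.0852 and 0.0266 FPKM with the vitamins, 3 groups without overlap. It fell by 1.55 ± 0.36 with RANKL (edgeR, adjusted p = 0.0498) and by 2.80 ± 0.38 with the vitamins (edgeR, adjusted p = 0.00143). Fermt3 (kindlin-3), which binds beta tails, was at 65.0, 57.9 and 57.5 FPKM in RANKL and 28.7, 40.1 and 31.8 FPKM with the vitamins, and fell by 0.71 ± 0.11 (edgeR, adjusted p = 0.00269). Of the complex of integrin-linked kinase and parvin, Ilk fell by 1.04 ± 0.21 (edgeR, adjusted p = 0.00689) and Parvg rose by 1.28 ± 0.27 (edgeR, adjusted p = 0.00718). The median over the list was 0.06 with RANKL and -0.15 with the vitamins over RANKL.

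Of 21 tested genes of outside-in signalling, 4 rose and 0 fell with RANKL (3.61% of all genes called), and 5 rose and 6 fell with the vitamins over RANKL (33.7%). Src, the kinase that osteoclasts need to form a resorbing surface and that acts downstream of alpha v beta 3, was at 0.600, 0.444 and 0.595 FPKM in PBS, 13.3, 18.9 and 10.9 FPKM in RANKL and 3.20, 2.53 and 2.19 FPKM with the vitamins. The groups did not overlap, and the vitamin libraries lay between the others. Src rose by 4.57 ± 0.27 with RANKL (edgeR, adjusted p = 0.00013) and fell by 2.27 ± 0.24 with the vitamins (edgeR, adjusted p = 0.000613), in the comparison in which Itgb3 rose. Bcar1 (p130Cas), a Src substrate, had 0, 4 and 0 counts in PBS, 103, 82 and 75 in RANKL and 13, 17 and 4 with the vitamins, was called higher with RANKL (edgeR, adjusted p = 0.0236) and fell by 2.80 ± 0.88 with the vitamins (edgeR, adjusted p = 0.0366). The focal adhesion genes Vcl (vinculin, 0.80 ± 0.17, adjusted p = 0.0403) and Ptk2 (focal adhesion kinase, 0.52 ± 0.12, adjusted p = 0.0463) rose with RANKL in edgeR. Ptk2 was at 1.04 to 1.12 FPKM in PBS, 1.63 to 1.68 FPKM in RANKL and 2.32 to 3.07 FPKM with the vitamins, where it rose by a further 0.79 ± 0.12 over RANKL (edgeR, adjusted p = 0.00181). The other genes that rose with the vitamins were Pik3cb, a catalytic subunit of PI3-kinase (0.79 ± 0.11, edgeR adjusted p = 0.00141), and, by 0.39 to 0.47, Vav3, Dock2 and Crk. The GTPases Rac2 (-0.74 ± 0.17, edgeR adjusted p = 0.0119) and Rac1 (-0.37 ± 0.12, edgeR adjusted p = 0.0489) fell. Pxn (paxillin) fell by 0.81 ± 0.11 with the vitamins (edgeR, adjusted p = 0.00127), as did the signalling adaptor Tyrobp (DAP12) by 0.84 ± 0.17 (edgeR, adjusted p = 0.00604). The median over the list was -0.05 with RANKL and -0.01 with the vitamins over RANKL.

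**Figure D4:**
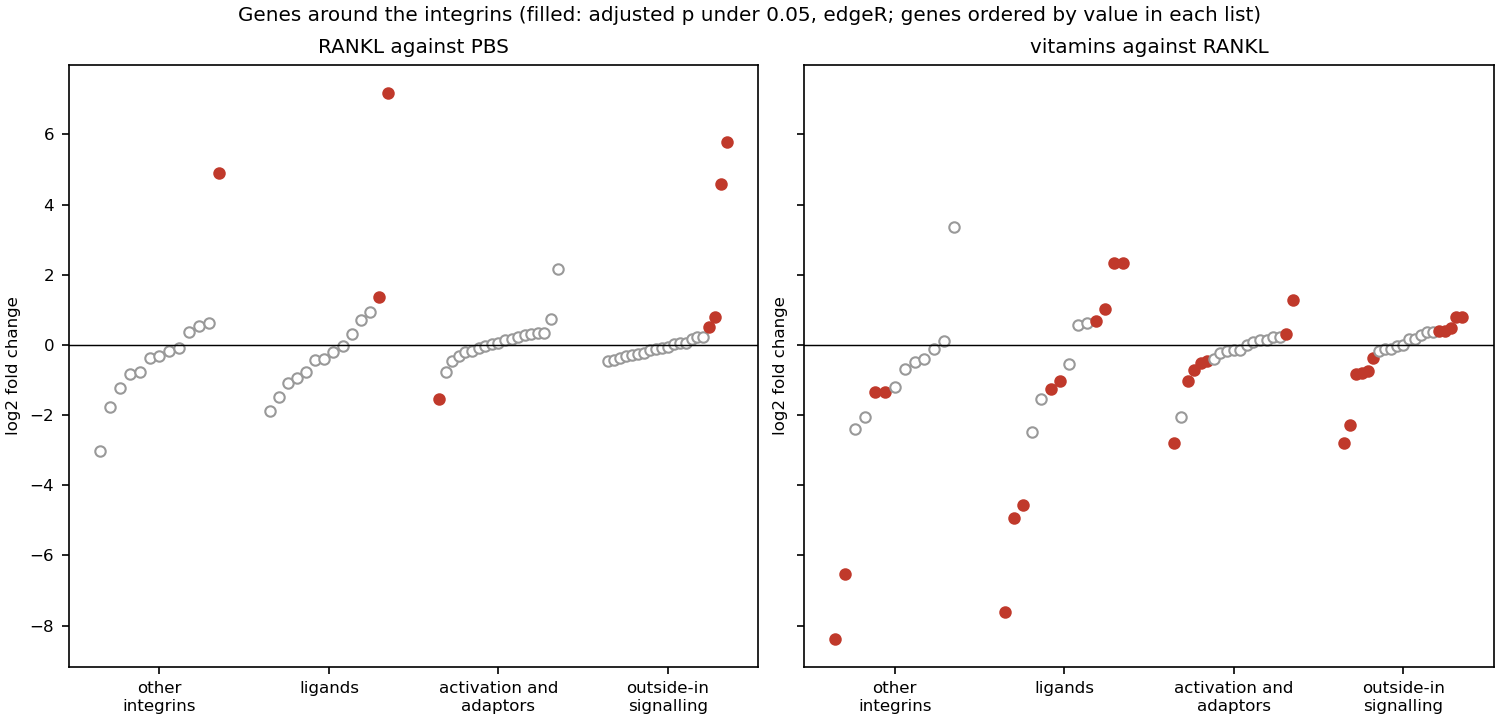
Log2 fold change (vertical axis) of each tested gene in 4 lists around the integrins for RANKL against PBS (left) and RANKL + Vit D + K against RANKL (right), ordered by value within each list and filled where the edgeR adjusted p was under 0.05. Values beyond 7 in either direction belong to genes with 0 counts in a whole group (Cdh1, Itgb8, Tnc) and depend on the prior count of the fit.

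The genes whose log2 CPM over the 9 libraries was most like that of 3 members were picked by Pearson's r, as a description in which all points share the 3 groups. For Itgb3 they were Abi1 (r = 0.996), Nln (0.994), Dld (0.993), Ccdc88a (0.990) and Bhlhe40 (0.990). Bhlhe40, a transcriptional repressor, had mean levels of 2.10, 12.1 and 66.3 FPKM in PBS, RANKL and RANKL + Vit D + K. For Itgax they were Gm10291 (0.989), Gm49774 (0.988), Anxa7 (0.986), Jade1 (0.983) and Cbwd1 (0.982), with Jade1 at 1.82, 3.91 and 9.57 FPKM. For Itgb5 they were Auh (0.973), Fchsd1 (0.972), Ppfia3 (0.972), Ube2r2 (0.970) and Rnf130 (0.968), all lower in the vitamin group than in PBS by their mean levels.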

How the data were processed

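BMDMs in 3 groups (PBS, RANKL and RANKL + Vit D + K, with 3 libraries each) were assigned by their labels. The authors deposited 1 table with whole-number counts per gene, not normalized, and FPKM, which they scaled to transcript length and library. RNA was selected on oligo(dT) beads and sequenced in pairs. The submitters' processing notes name cutadapt 1.9, HISAT2 2.0.4, StringTie 1.3.4d and edgeR, and the build hg38, although the organism is mouse and the coordinates are those of GRCm38. Strand use in counting is not given in the sources used here, so overlapping genes are uncertain. Counts of 4 were in excess, so a count need not be 1 read, and floors (3 counts) cover counting error only.

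Counts were tested in R 4.3.3 with edgeR 4.0.16 (filterByExpr, TMM, quasi-likelihood test, 1 model of all 9 libraries, Benjamini-Hochberg over 17002 genes). The SE is the log2 fold change divided by the square root of F, and 95% intervals use the t distribution of that test. FPKM ratios and shares were compared by exact two-sided permutation tests. Scripts were tested on simulated data. Alternatives were DESeq2 1.42.0, median-of-ratios factors, no filter, limma 3.58.1 on log2(FPKM + 0.1 or 1), only the groups compared, each library left out, sample quality weights, counts divided by 4, counts in place of FPKM in the ratios and shares, and the replicate number as a block. The last with only the PBS and RANKL libraries was added after seeing the data. Residuals of equal replicate number correlated between PBS and RANKL (r = 0.122, 0.219 and 0.155), so the numbers were taken to pair these groups.

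The members and gene lists were chosen with earlier results of these data known. All 10 members are named, and from each list and comparison with the RANKL group up to 4 called genes with the largest changes whose libraries do not overlap (Pik3cb, Vav3, Dock2, Crk, Rac1, Rac2 and the vitamin value of Ptk2 were added after their values were seen), plus the 5 genes most correlated with Itgb3, Itgb5 and Itgax. The summed macrophage markers and the summed megakaryocyte and platelet markers are not reported here. Columns of the authors' own comparisons were not used. RefSeq (GRCm38.p6) gave the upstream sequences.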

Additional observations from a re-analysis of the deposited data

How the results depend on the processing

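Of 550 recomputed differences of the 10 members (30 pairs of gene and comparison), 514 kept their direction and side of the threshold, 24 newly passed it, 11 no longer passed it and 1 reversed (Itgb2, RANKL against PBS, which ran from -0.0211 without RANKL replicate 1 to 0.0906 without PBS replicate 1 when a library was left out, and to 0.134 over all 19 alternatives). The PBS to RANKL counts were the least stable, and the cause was not tested. Of all genes 614 were called, against 1706 by DESeq2, 1736 with only these groups, 3006 with quality weights, 3081 with the replicate block in these groups and 126 to 1903 with a library left out (fewest without PBS replicate 3, most without vitamin replicate 2). Integrins called were 2, against 5 by DESeq2, 5 with the block in these groups (Itgam, Itgav and Itgb3 added), 6 with quality weights and 0 to 3 with a library left out (0 without PBS replicate 3 or RANKL replicate 1). Genes called in the 4 lists were 8, against 16 by DESeq2, 5 without the filter, 19 with only these groups, 23 with the block in these groups, 27 with quality weights and 2 to 18 with a library left out. For the vitamins against RANKL, 5725 genes were called, against 10698 with quality weights and 3199 (without RANKL replicate 1) to 8259 (without vitamin replicate 2) with a library left out. Integrins called were 5, 8 with quality weights, 5 without vitamin replicate 2 and 4 (Itgb3 lost) without RANKL replicate 1 or 3 or vitamin replicate 1 or 3. List genes called were 31, against 20 with only these groups, 48 with quality weights and 18 to 39 with a library left out. For the vitamins against PBS, 6932 genes were called, 10899 with quality weights. In limma on log2(FPKM + 0.1), the median of all genes for the vitamins against RANKL was -0.16 against -0.04, and 35.6% of calls were higher against 48.8%. The share of Itgam differed by 21.9 percentage points between the vitamin and PBS groups from counts and by 18.2 from FPKM.

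With the replicate block in the model of all 9 libraries, 825 genes and 3 integrins were called for RANKL against PBS, the added one being Itgav. The vitamin libraries were not taken as paired with the others, as r of equal numbers was lower (0.00625 to 0.107 with RANKL and -0.0216 to 0.0237 with PBS). The largest of these was close to the lowest r between PBS and RANKL (0.122), so r alone does not settle either pairing. The block added Itgav for the vitamins against RANKL (-0.41, edgeR adjusted p = 0.0315) and left the member calls of the vitamins against PBS at 7. The exact tests of 3 libraries against 3 cannot go below 0.1, or 0.25 when paired. The lowest members, Itgax and Itgb3 in PBS, rest on 156 to 621 counts per library.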
